A study of Homo sapiens with 9 samples.

Results

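Glypicans and syndecans are the main families of core proteins that carry heparan sulfate at the cell surface. The 10 human genes of these families, GPC1 to GPC6 and SDC1 to SDC4, were looked up by RefSeq identifier in a table of 1259 probe sets, of which 1043 carried exactly 1 gene symbol. This gave 10 probe sets for 9 genes, namely 5 glypicans and 4 syndecans. SDC4 had a pair of probe sets, every other gene had 1, and GPC2 was not analysed here. The probe sets of GPC3, GPC6 and SDC3 are shared among transcripts by their suffix, so their signal may include related transcripts. The signals came from 9 single-colour arrays of glycosylation-related genes hybridised with RNA of 2 human colon carcinoma-derived epithelial lines. T84 cells exposed to 100 U/ml interferon gamma for 24 hours made up 3 arrays. Their passage and confluence are not given in the labels. Untreated T84 cells (passage 68) made up 3 arrays and untreated Caco-2 cells (passage 37) the other 3, both at about 90% confluence. No treated Caco-2 cells were analysed here. The question behind the series was which genes of glycosylation might underlie a sialylated CD44 variant shown by T84 cells after interferon gamma and missing from Caco-2 cells.

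Glypicans are held in the outer leaflet of the membrane by a glycosylphosphatidylinositol (GPI) anchor, and their heparan sulfate chains sit close to the membrane. Syndecans cross the membrane once, carry their chains far from it and have a short, conserved cytoplasmic tail. Through these chains both families bind fibroblast growth factors, Wnt and Hedgehog proteins and chemokines, and SDC1 is the prominent syndecan of simple epithelia such as that of the gut.

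All values are log2 signals per probe set from the authors' RMA processing, so 1 unit is a 2-fold difference in signal. A probe set's signal depends on its own sequence, so levels are compared between groups for 1 probe set and not between genes. Tests are the moderated tests of limma in 1 fit of all 9 arrays, with p-values adjusted by Benjamini-Hochberg over the whole table of 1259 and called below 0.05. Replicates are numbered in the labels, but nothing there says that they were separate cultures, so the p-values reflect the spread among these arrays, and that spread may be technical. Array medians lay between 6.70 and 6.80, and the lower quartile of the signals on an array between 5.26 and 5.38. With 3 arrays per group, precision is limited. Caco-2 replicate 1 stood apart from the other Caco-2 arrays, and its deviations ran with those of treated T84 replicate 3 and untreated T84 replicate 3. Of 13 listed intestinal epithelial marker genes 5 were measured, and all 5 were higher in both T84 groups than in Caco-2. Of all probe sets, 19.5% were higher in untreated and 19.4% in treated T84 than in Caco-2. Leukocyte marker genes, 11 measured, summed to 9.11 to 9.14 log2 units on the treated T84 arrays, 9.02 to 9.11 on the untreated ones and 9.0 to 9.11 on those of Caco-2, and none of them passed the test between treated and untreated T84. In each T84 group against Caco-2, 2 were higher (CD22 and CLEC4A), 1 was lower (CCR7) and 8 did not pass. Of all probe sets, 43.7% passed for untreated and 45.6% for treated T84 against Caco-2. Of these 11 genes, 3 lay below the lower quartile on every array. Of 11 measured interferon gamma response genes, 8 rose in treated against untreated T84 and none fell, where 4.37% of all probe sets rose and 5.8% fell.

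Promoter sequences are shown for some of the genes that differed between groups. GPC4 was higher in both T84 groups than in Caco-2, and SDC1 was higher in untreated T84 than in the other groups. GPC1 and SDC4 were lower in both T84 groups than in Caco-2. The sequence of GPC6, which passed no test with the deposited values, is shown because its window held an interferon-type motif. Each sequence is the stretch of 250 bases before a RefSeq transcription start, 5′ to 3′ on the strand of the gene. Capitals mark matches on either strand to the GC box GGGCGG, the TATA box TATAAA and the core of the interferon-stimulated response element (ISRE), which is GAAA, any 2 bases and GAAA again.
GPC4 (GRCh38.p14, chrX:133415490-133415739, - strand): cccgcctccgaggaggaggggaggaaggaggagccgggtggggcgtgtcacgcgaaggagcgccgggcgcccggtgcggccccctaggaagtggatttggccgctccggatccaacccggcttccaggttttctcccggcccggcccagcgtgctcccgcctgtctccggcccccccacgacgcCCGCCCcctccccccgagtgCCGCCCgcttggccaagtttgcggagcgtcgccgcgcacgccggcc
SDC1, first start (GRCh38.p14, chr2:20225476-20225725, - strand): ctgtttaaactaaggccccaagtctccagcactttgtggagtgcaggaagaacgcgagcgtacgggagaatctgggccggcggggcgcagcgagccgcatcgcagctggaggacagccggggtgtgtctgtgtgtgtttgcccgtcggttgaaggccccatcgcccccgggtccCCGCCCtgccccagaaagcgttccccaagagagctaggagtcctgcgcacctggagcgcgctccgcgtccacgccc
SDC1, second start (GRCh38.p14, chr2:20225131-20225380, - strand): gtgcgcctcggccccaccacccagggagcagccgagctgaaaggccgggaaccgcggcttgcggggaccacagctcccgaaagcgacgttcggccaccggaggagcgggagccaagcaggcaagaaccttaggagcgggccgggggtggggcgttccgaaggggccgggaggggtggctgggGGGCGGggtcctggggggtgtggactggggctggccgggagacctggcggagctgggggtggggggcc
GPC1 (GRCh38.p14, chr2:240435413-240435662, + strand): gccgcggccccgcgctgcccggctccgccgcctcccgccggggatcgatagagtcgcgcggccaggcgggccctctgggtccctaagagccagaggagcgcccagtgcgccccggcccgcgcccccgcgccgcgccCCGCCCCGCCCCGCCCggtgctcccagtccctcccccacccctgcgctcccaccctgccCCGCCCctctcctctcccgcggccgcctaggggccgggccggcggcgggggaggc
SDC4 (GRCh38.p14, chr20:45348425-45348674, - strand): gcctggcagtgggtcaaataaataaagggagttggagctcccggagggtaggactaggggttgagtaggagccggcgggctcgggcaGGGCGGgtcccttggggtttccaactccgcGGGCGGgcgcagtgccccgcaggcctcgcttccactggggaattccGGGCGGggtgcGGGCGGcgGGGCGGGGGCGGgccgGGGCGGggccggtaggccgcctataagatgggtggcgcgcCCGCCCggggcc
GPC6 (GRCh38.p14, chr13:93226557-93226806, + strand): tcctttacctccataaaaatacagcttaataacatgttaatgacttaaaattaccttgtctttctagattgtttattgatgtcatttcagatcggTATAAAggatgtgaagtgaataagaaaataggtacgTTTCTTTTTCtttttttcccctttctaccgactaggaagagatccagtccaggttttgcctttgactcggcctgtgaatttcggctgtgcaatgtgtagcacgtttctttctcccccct
RefSeq windows were read for 8 of the 10 genes, 9 windows in all, since SDC1 had a pair of starts. GPC2 is among them, although its signal was not analysed here, and GPC3 and SDC2 are not. A GC box lay in 8 of the 9, against 42.6% of 35116 windows of the same length in the table. SDC4 held 8 GC box matches, GPC1 held 4, some of which overlap by a base, and GPC4 held 2. The ISRE core lay in 1 of the 9, that of GPC6, against 3.02% of all windows. These letter matches are descriptions, and their part in the signals was not tested.

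Within the glypicans, GPC3 and GPC4 showed the largest differences between the lines, in opposite directions. These genes are neighbours on the X chromosome. GPC3 encodes an oncofetal glypican that is abundant in fetal liver and hepatocellular carcinoma and limits Hedgehog signalling. Its log2 signals were 6.95, 6.94 and 6.92 in the treated T84 arrays, 6.90, 6.81 and 7.07 in the untreated T84 arrays, and 11.98, 11.94 and 11.75 in the Caco-2 arrays. Every Caco-2 array was thus far above every T84 array, and the T84 groups overlapped. GPC3 was 31.2-fold lower in untreated T84 cells than Caco-2 cells (95% confidence interval 27.4 to 35.5, limma adjusted p = 6.07e-10) and 31.0-fold lower in treated T84 cells than Caco-2 cells (27.2 to 35.3, adjusted p = 6.16e-10). By absolute log2 fold change it ranked 6 and 10 of 1259 in these comparisons. Between treated and untreated T84 its log2 fold change was 0.01 (interval -0.18 to 0.20, adjusted p = 0.989).

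GPC4 encodes a glypican that binds Wnt and fibroblast growth factor ligands. Its log2 signals were 8.67, 8.64 and 8.67 in the treated T84 arrays, 8.48, 8.48 and 8.61 in the untreated T84 arrays, and 4.73, 5.01 and 4.61 in the Caco-2 arrays. The Caco-2 values lay below the lower quartile of their arrays, and those of both T84 groups did not. At so low a Caco-2 signal the size of the fold is less certain than its interval, which covers the spread between arrays only. GPC4 was 13.4-fold higher in untreated T84 cells than Caco-2 cells (95% confidence interval 11.5 to 15.6, limma adjusted p = 1.06e-08) and 14.7-fold higher in treated T84 cells than Caco-2 cells (12.6 to 17.1, adjusted p = 8.64e-09). All 3 treated T84 arrays lay above the untreated T84 arrays, but the ratio of 1.1 did not pass (0.94 to 1.28, adjusted p = 0.56).

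**Figure D1:**
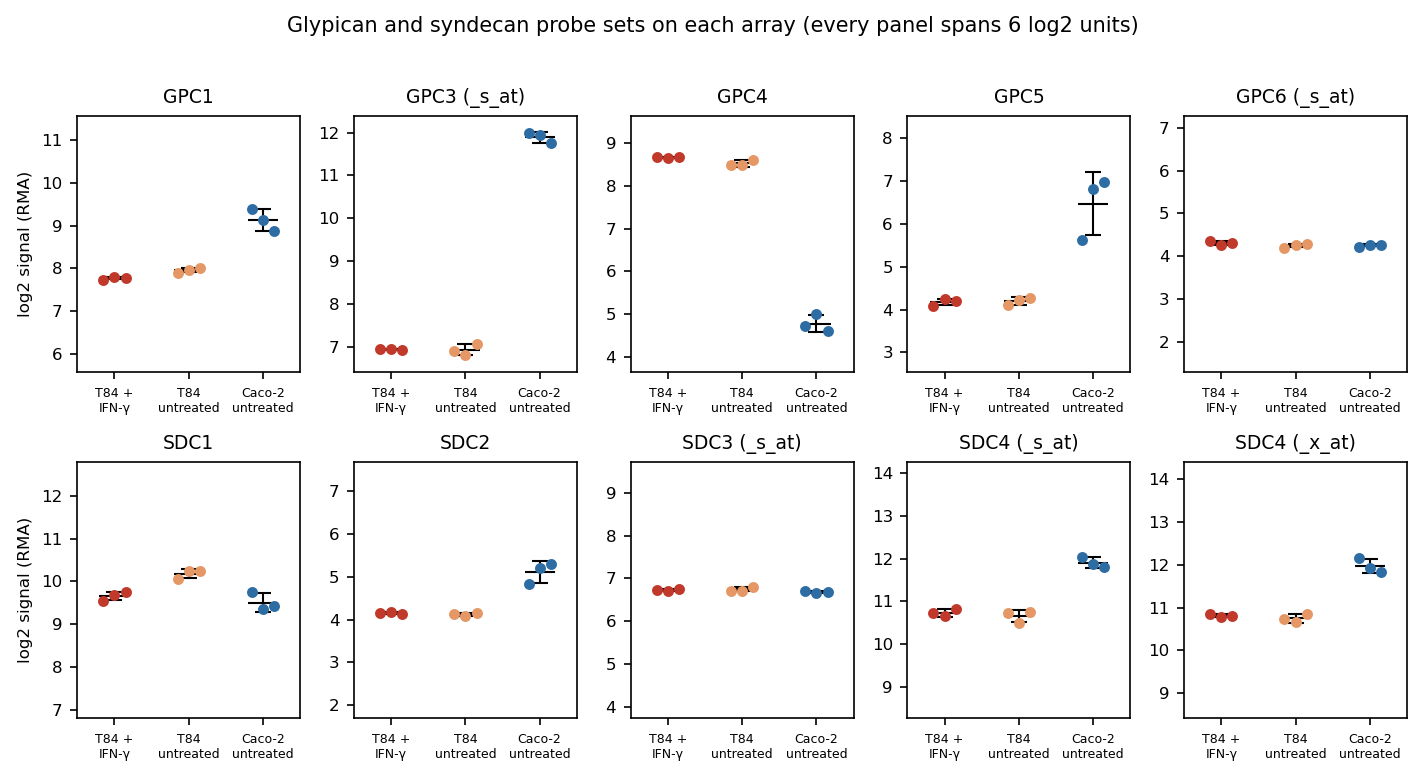
Log2 signal (vertical axis) of each glypican and syndecan probe set on each array, with treated T84, untreated T84 and Caco-2 from left to right; points are replicates 1 to 3 from left to right, and bars give the mean ± SD (n = 3). GPC3, GPC1, GPC5, SDC2 and SDC4 lay higher on every Caco-2 array than on every T84 array, and GPC4 lay lower on every Caco-2 array.

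The log2 signal of GPC4 minus that of GPC3 on the same array removes any scaling shared by the 2 probe sets. Its size has no absolute meaning, because the probe sets have no common scale, but its difference between groups can be read. It averaged 1.73 ± 0.02 on the treated T84 arrays, 1.60 ± 0.07 on the untreated ones and -7.11 ± 0.16 on those of Caco-2 (SD, n = 3 each). Untreated T84 thus differed from Caco-2 by 8.71 log2 units and treated T84 from Caco-2 by 8.83, while treated and untreated T84 differed by 0.13. In an exact two-sided permutation test each of these 3 differences gave p = 0.1, the smallest that 3 arrays against 3 allow. The pair was chosen with its pattern known, so this is a description.

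GPC1 encodes the glypican best known as a coreceptor for fibroblast growth factors and is raised in several carcinomas. Its log2 signals were 7.74, 7.81 and 7.78 in the treated T84 arrays, 7.90, 7.97 and 8.0 in the untreated T84 arrays, and 9.40, 9.14 and 8.87 in the Caco-2 arrays. The 3 groups did not overlap. GPC1 was 2.26-fold lower in untreated T84 cells than Caco-2 cells (95% confidence interval 1.88 to 2.72, limma adjusted p = 4.86e-05) and 2.57-fold lower in treated T84 cells than Caco-2 cells (2.14 to 3.08, adjusted p = 1.79e-05). Between treated and untreated T84 the log2 fold change of -0.18 ± 0.12 (SE) did not pass (adjusted p = 0.511). It passed when the 6 T84 arrays were fitted alone (adjusted p = 0.0386), a fit that leaves out the spread of the Caco-2 arrays. That spread was 0.26, against 0.03 in treated and 0.05 in untreated T84 (SD, n = 3 each).

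GPC5 and GPC6 lie side by side on chromosome 13. GPC5, whose product promotes Hedgehog signalling in rhabdomyosarcoma cells, had log2 signals of 4.09, 4.24 and 4.20 in the treated T84 arrays, 4.11, 4.22 and 4.28 in the untreated T84 arrays, and 5.63, 6.81 and 6.98 in the Caco-2 arrays. The values of both T84 groups lay below the lower quartile of their arrays, and Caco-2 replicate 1 lay 1.27 units under the mean of the other Caco-2 arrays. The same limit on the size of the fold holds here, for the T84 signals. GPC5 was 4.82-fold lower in untreated T84 cells than Caco-2 cells (95% confidence interval 2.97 to 7.82, limma adjusted p = 0.000343) and 4.91-fold lower in treated T84 cells than Caco-2 cells (3.03 to 7.97, adjusted p = 0.00028). Without Caco-2 replicate 1 the log2 fold changes were -2.69 and -2.72, against -2.27 and -2.30 with it. Between treated and untreated T84 the log2 fold change was -0.03, with an interval of -0.73 to 0.67.

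GPC6, mutated in the skeletal disorder omodysplasia, had log2 signals between 4.20 and 4.36 on all 9 arrays, below the lower quartile of each. Its log2 fold changes were 0.07 ± 0.04 between treated and untreated T84, -0.01 ± 0.04 between untreated T84 and Caco-2, and 0.06 ± 0.04 between treated T84 and Caco-2 (SE), and none passed (limma adjusted p = 0.53, 0.934 and 0.298). At so low a signal a difference may not be detectable. With ribosomal protein centring the value for treated T84 against Caco-2 was 0.32 and passed (adjusted p = 0.00623), where the median of all probe sets was 0.28.

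Among the syndecans, SDC1 alone passed the test between treated and untreated T84, in a table where 10.2% of all probe sets passed. SDC1, also called CD138, mediates epithelial adhesion and growth factor binding and can be shed from the cell surface. Its log2 signals were 9.55, 9.69 and 9.74 in the treated T84 arrays, 10.06, 10.23 and 10.25 in the untreated T84 arrays, and 9.75, 9.35 and 9.42 in the Caco-2 arrays. The treated T84 arrays lay below all untreated T84 arrays and overlapped those of Caco-2. SDC1 fell to 9.66 ± 0.10 in treated T84, against 10.18 ± 0.11 in untreated T84 (SD, n = 3 each), 1.43-fold lower (95% interval 1.2 to 1.71, adjusted p = 0.0187 in limma). It was 1.60-fold higher in untreated T84 cells than Caco-2 cells (1.34 to 1.90, adjusted p = 0.00108). Set against Caco-2, the treated T84 cells had a ratio of 1.11 that did not pass (0.93 to 1.33, adjusted p = 0.295).

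The fall of SDC1 in treated T84 was close to the threshold. Its log2 fold change ran from -0.62 to -0.45 over the 20 alternative fits, but the call was lost in 7 of them. Fits that altered only the other probe sets, the Caco-2 arrays, the replicate block or the error estimate could not change this fold change. Its direction in those fits is therefore no check. Leaving out single arrays ended it without treated T84 replicate 1 (adjusted p = 0.0701) or 2 (0.061), or without untreated T84 replicate 2 (0.0699) or 3 (0.0782), in the limma fit. The other 3 losses came with the replicate block (0.0658), without moderation (0.0629) and with ribosomal protein centring (0.0557). The difference between untreated T84 and Caco-2 passed in all 20. Treated T84 passed against Caco-2 in 3 of 20, among them the fit without Caco-2 replicate 1 (log2 fold change 0.28, adjusted p = 0.0225).

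**Figure D2:**
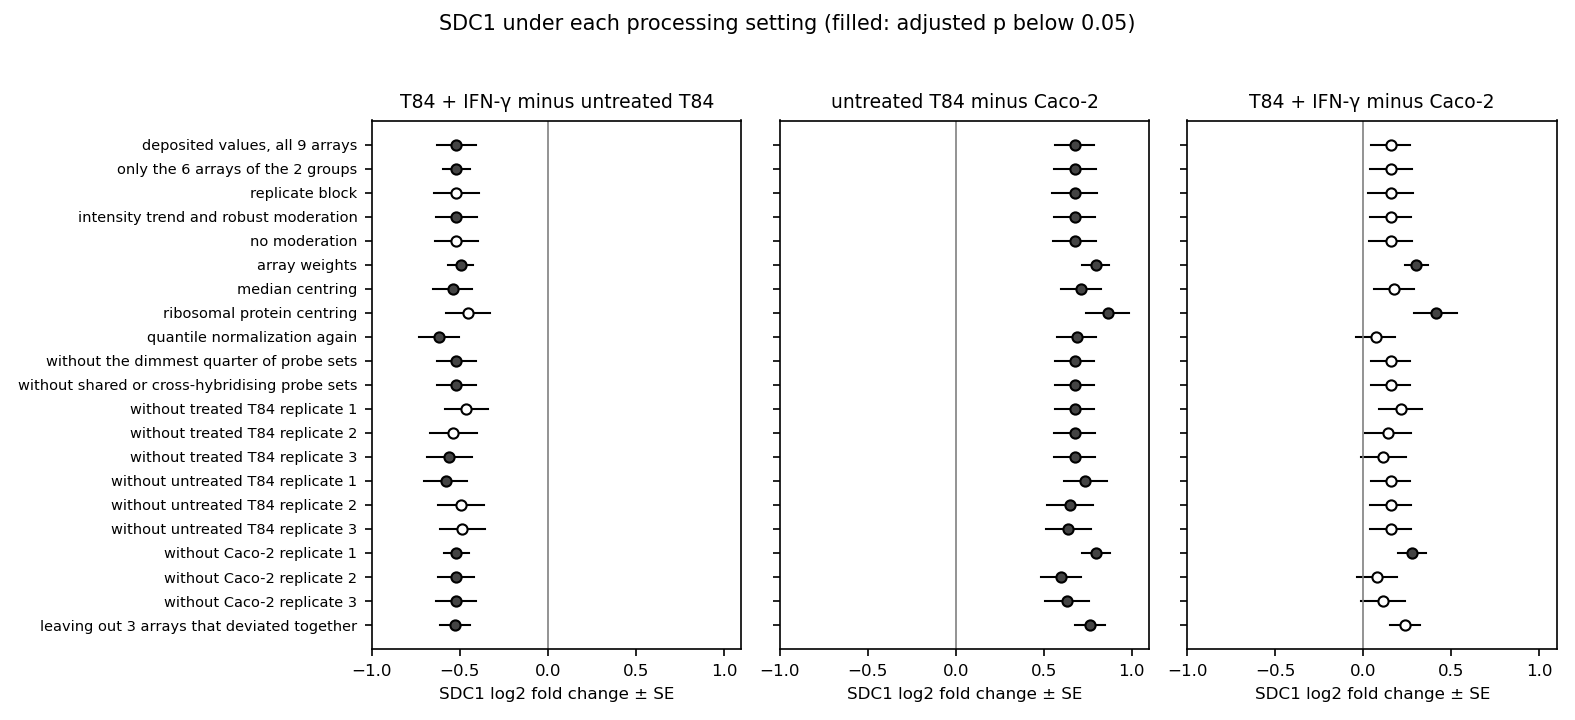
Log2 fold change of SDC1 with its standard error (horizontal axis) under the deposited values and 20 alternative settings, for treated against untreated T84, untreated T84 against Caco-2, and treated T84 against Caco-2; filled points have a limma adjusted p below 0.05. In the left panel all points lie between -0.62 and -0.45, and 7 of the alternatives are open.

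SDC4, a syndecan of focal adhesions that works with integrins, was read by 2 probe sets of the same transcript. The suffix of one says that its probes match several transcripts and that of the other that they may cross-hybridise, so neither is specific by design. The first gave log2 signals of 10.73, 10.65 and 10.83 in the treated T84 arrays, 10.73, 10.49 and 10.76 in the untreated T84 arrays, and 12.05, 11.87 and 11.81 in the Caco-2 arrays. Every Caco-2 array lay above every T84 array on both probe sets. SDC4 was lower in untreated T84 cells than Caco-2 cells by 2.38-fold on the first probe set (95% confidence interval 2.05 to 2.76) and 2.34-fold on the second (2.03 to 2.70), and in treated T84 by 2.25-fold and 2.24-fold (limma adjusted p at or below 1.15e-05 in all 4 tests). Treated and untreated T84 differed by log2 fold changes of 0.08 ± 0.09 and 0.06 ± 0.09 (SE) that did not pass, with interval limits from -0.14 to 0.29.

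SDC2, a syndecan typical of mesenchymal cells, gave low signals throughout. Its log2 signals were 4.15, 4.19 and 4.14 in the treated T84 arrays, 4.12, 4.09 and 4.16 in the untreated T84 arrays, and 4.83, 5.21 and 5.30 in the Caco-2 arrays, each below the lower quartile of its array. Caco-2 nevertheless lay above every T84 array. The limit on the size of the fold given for GPC4 holds here too, with low signals in both lines. SDC2 was 1.99-fold lower in untreated T84 cells than Caco-2 cells (95% confidence interval 1.68 to 2.37, limma adjusted p = 9.39e-05) and 1.94-fold lower in treated T84 cells than Caco-2 cells (1.64 to 2.31, adjusted p = 0.000102). Of 10 measured marker genes of fibroblasts and endothelial cells, other cell types that express SDC2, 5 were lower in each T84 group than in Caco-2, none was higher and 5 did not pass, where 26.2% of all probe sets were lower in treated and 24.2% in untreated T84. Their summed level was 9.10 to 9.17 log2 units on the treated T84 arrays, 9.04 to 9.18 on the untreated ones and 9.59 to 9.71 on those of Caco-2. Of these 10 genes, 5 lay below the lower quartile on every array, and no signal on the list exceeded 8.65. The part of these markers in the result was not tested.

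SDC3, a syndecan known from neural tissue and developing muscle, had log2 signals between 6.66 and 6.80 on all 9 arrays. Its log2 fold changes were -0.01 ± 0.04 between treated and untreated T84, 0.05 ± 0.04 between untreated T84 and Caco-2, and 0.04 ± 0.04 between treated T84 and Caco-2 (SE), and none passed (limma adjusted p = 0.956, 0.352 and 0.436). Their 95% intervals ran from -0.11 to 0.09, from -0.04 to 0.15 and from -0.05 to 0.14 on the log2 scale. Centring on ribosomal protein genes put the median log2 fold change of all probe sets at 0.28 for treated T84 against Caco-2 and 0.21 for untreated T84 against Caco-2, against 0.02 in each as deposited. SDC3 then had values of 0.30 and 0.24 that passed, each within 0.05 of that median.

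**Figure D3:**
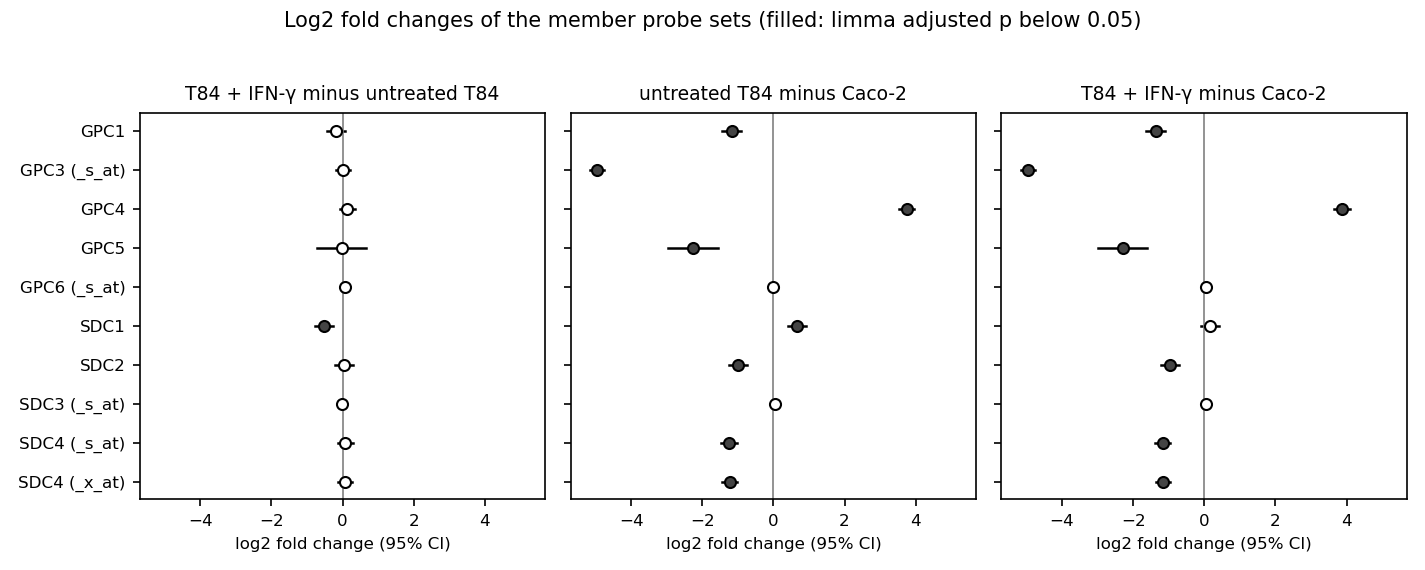
Log2 fold change with its 95% confidence interval (horizontal axis) of the 10 member probe sets in each comparison; filled points have a limma adjusted p below 0.05. SDC1 alone is filled for treated against untreated T84, while GPC3 at -4.96 and GPC4 at 3.74 lie farthest from 0 for untreated T84 against Caco-2.

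Counted over the family, none of the 10 probe sets was higher and 1, SDC1, was lower in treated than in untreated T84, where 10.2% of all 1259 probe sets passed, 4.37% higher and 5.8% lower. The median log2 fold change of the members was 0.02, beside -0.01 over all probe sets, and the members' share called lay at the background. The treated and untreated T84 arrays did not overlap at 3 of the 10 (GPC1, GPC4 and SDC1), beside 27.5% of all probe sets. For untreated T84 against Caco-2 the members split into 2 higher (GPC4 and SDC1), 6 lower (GPC1, GPC3, GPC5, SDC2 and both of SDC4) and 2 not past the test (GPC6 and SDC3), with 43.7% of the whole table called, 19.5% higher and 24.2% lower. The median absolute log2 fold change was 1.2 for the members and 0.20 for all probe sets. In treated T84 against Caco-2, 1 was higher (GPC4), 6 lower and 3 not past the test, beside 45.6% of the table, 19.4% higher and 26.2% lower. The arrays of untreated T84 and Caco-2 did not overlap at 8 of 10 members, beside 49.6%, and those of treated T84 and Caco-2 at 7, beside 53.5%. The comparisons share arrays, so they are not independent of each other. The members were taken up with these differences known, and nothing particular to the family is read from the counts.

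Genes of heparan sulfate chain metabolism were counted next. The linkage genes among them serve glycosaminoglycan chains in general, a class that includes heparan sulfate, and are not particular to it. Of 38 measured genes for chain linkage, polymerisation, sulfation and removal, 1 rose and 1 fell in treated T84 against untreated T84, where 10.2% of all probe sets passed. The heparanase gene HPSE, which cleaves the chains, rose 1.63-fold (limma adjusted p = 0.00745), with log2 signals of 7.80 in treated and 7.09 in untreated T84. XYLT1, a xylosyltransferase that starts the chains on the core protein, fell by 0.66 ± 0.11 (SE) on the log2 scale (adjusted p = 0.00591), and its probe set may cross-hybridise. Treated T84 against Caco-2 gave 9 higher and 9 lower of the 38, beside 45.6% of all probe sets called, and untreated T84 against Caco-2 gave 9 and 6, beside 43.7%.

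By role, 1 of 5 polymerisation genes was higher in untreated T84 cells than Caco-2 cells. That gene, EXT1, a subunit of the polymerase, was 2.98-fold higher (limma adjusted p = 1.58e-06), at a log2 signal of 10.12 in untreated T84 and 8.54 in Caco-2. Of 16 sulfation and epimerisation genes 2 were higher and 3 lower. HS3ST1, a 3-O-sulfotransferase, was 1.91-fold higher, the N-deacetylase and N-sulfotransferase gene NDST1 1.76-fold lower and the 6-O-sulfotransferase gene HS6ST1 1.80-fold lower (adjusted p at or below 0.000516). Of 7 chain linkage genes 2 were higher and 1 lower, each count 1 to 2 without single arrays. The higher genes were B4GALT7 (1.26-fold, limma adjusted p = 0.00248) and XYLT1 (1.24-fold, 0.0461). The lower gene was XYLT2, the other xylosyltransferase (2.02-fold). Of 10 genes of chain removal 4 were higher, led by the lysosomal sulfatase gene IDS (3.88-fold), and 2 lower, among them SULF2, a cell surface 6-O-endosulfatase (2.13-fold). These counts stand beside the 43.7% of all probe sets called. Without Caco-2 replicate 1, 2 polymerisation genes were higher and 1 lower, and 4 sulfation genes were higher. The count of 2 lower genes of chain removal was 1 to 3 without single arrays. It was 1 without any single array but untreated T84 replicate 3 and Caco-2 replicate 3, and SULF2 kept its call in each of these fits.

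Of 26 listed GPI anchor genes, which serve glypicans and many other proteins, 9 were measured. Of these 9, 5 were higher and 1 lower in untreated T84 cells than Caco-2 cells, where 19.5% of all probe sets were higher and 24.2% lower. The count of 5 higher was 4 to 7 without single arrays. PIGB, a mannosyltransferase of the anchor, was 2.5-fold higher (limma adjusted p = 2.84e-05). Among 22 other proteoglycan core genes, 3 were higher and 7 lower in untreated T84 cells than Caco-2 cells, or 45.5% called, near the 43.7% of all probe sets. CD44, the core protein whose variant the series followed, was at 10.28 ± 0.12 in untreated T84 and 5.60 ± 0.21 in Caco-2 (SD, n = 3 each). In treated against untreated T84, the invariant chain gene CD74, whose product can carry chondroitin sulfate, rose by 3.54 ± 0.08 log2 units (SE, adjusted p = 2.55e-08 in limma), and the perlecan gene HSPG2 fell. The HSPG2 change of -0.40 ± 0.09 (SE, adjusted p = 0.0232 in limma) was lost without treated T84 replicate 2 or 3 or without any 1 of the 3 untreated T84 arrays (adjusted p from 0.0759 to 0.0977).

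Ligands and receptors that use heparan sulfate were counted beside the cores. Of the 43 ligand genes on this list none rose and 6 fell in treated against untreated T84, or 14% called. Of all probe sets 10.2% passed, 4.37% higher and 5.8% lower. The chemokine genes CXCL9 and CXCL10 were counted among the interferon gamma response genes and not on this list. They rose 69.8-fold and 34.5-fold in treated T84 (limma adjusted p at or below 6.5e-07), so the absence of a rise holds for the listed genes only. Among the 6 listed ligand genes that fell were the Hedgehog ligand gene IHH (2.08-fold), FGF18 (1.71-fold) and BMP7 (1.60-fold). The count was 3 without treated T84 replicate 2, or without untreated T84 replicate 1 or 3, while IHH, FGF18 and BMP7 passed without any 1 of the 9 arrays. Untreated T84 against Caco-2 gave 6 higher and 13 lower ligand genes, or 44.2% called, near the 43.7% of all probe sets. Of 19 receptor genes 2 were higher and 10 lower in untreated T84 cells than Caco-2 cells, or 63.2% called beside the same 43.7%, with FGFR2 29.9-fold lower and the frizzled receptor gene FZD4 7.74-fold lower. The count of 2 higher was 1 without any of the 3 treated T84 arrays, untreated T84 replicate 2 or 3, or Caco-2 replicate 2 or 3. In treated against untreated T84, 1 of the 19 receptor genes rose and 3 fell, or 21.1% called beside 10.2% of all probe sets. FGFR3 fell 2.36-fold and FZD2 1.95-fold, while FZD4 rose 1.32-fold. The count of receptor genes that fell was 2 to 4 without single arrays. The largest limma adjusted p among the ligand and receptor genes named here was 0.00524.

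**Figure D4:**
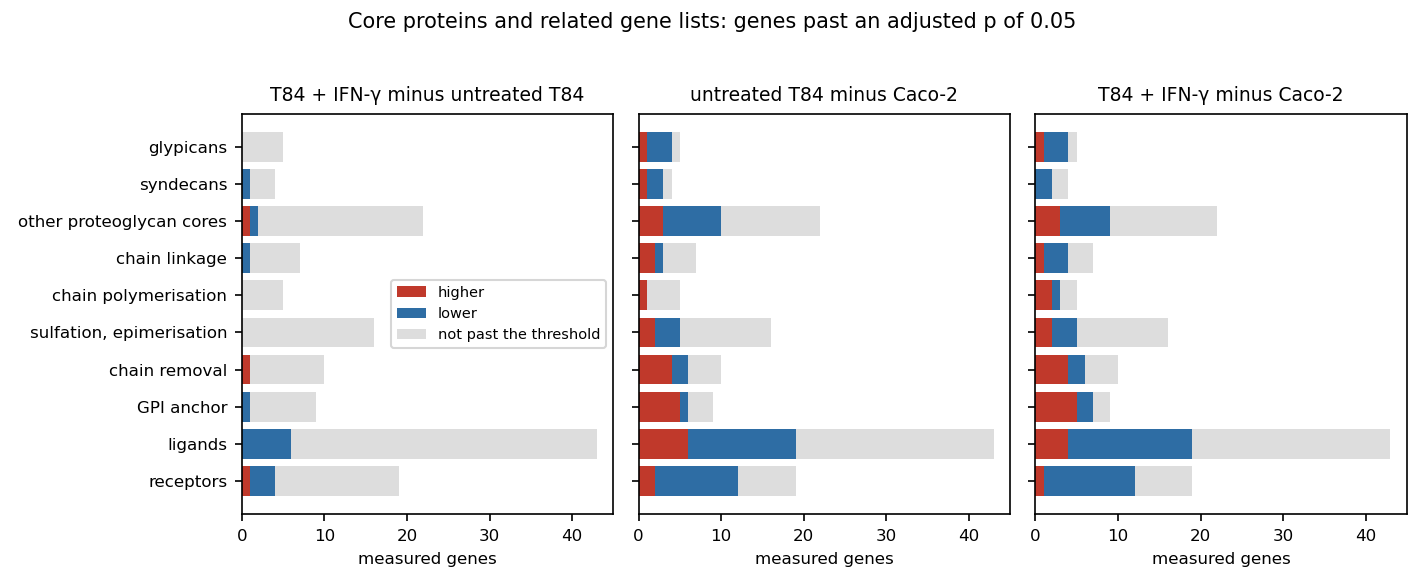
Number of measured genes (horizontal axis) in the glypican and syndecan families and in 8 related lists that were higher (red), lower (blue) or not past a limma adjusted p of 0.05 (grey) in each comparison. In treated against untreated T84 the bars are mostly grey, and against Caco-2 the receptors hold 10 lower genes for untreated and 11 for treated T84.

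Profiles over the 9 arrays, each centred on its own mean, were compared with those of 926 other named genes by their root mean square difference in log2 units, for members whose group means spanned at least 1 unit. The nearest to GPC3 were AHSG at 0.12, which encodes the plasma glycoprotein fetuin-A, FGFR2 at 0.14 and PDGFC at 0.22. The nearest to GPC4 were IFITM1 (0.16), GDF15 (0.22) and ST6GALNAC1 (0.29). For GPC1 they were ST3GAL1 (0.08), XYLT2 (0.09) and APH1B (0.10), and for GPC5 COLEC12 (0.24), OLR1 (0.24) and MAN1A1 (0.29). Both SDC4 probe sets were nearest to PODXL, the gene of the cell surface sialomucin podocalyxin, at 0.09 and 0.06. The arrays fall into 3 groups, so likeness here means mainly a like difference between the lines.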

How the data were processed

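RNA of 9 samples, 3 per group, was labelled and hybridised to single-colour Affymetrix-type arrays, per the labels' protocols. The authors deposited log2 signals per probe set made by RMA, per the submitters' processing notes, whose version and input were not given in the sources used here, nor was the genome build of the probe sets. Scanner files were not used here, and no further normalization was applied. Probe sets were named by RefSeq identifier without version, and 216 had no symbol. A model with 1 coefficient per group, covering the 9 arrays, was fitted by limma 3.58.1 under R 4.3.3 (6 residual and 2.12 prior degrees of freedom). The fit was also run on simulated arrays with independent noise. Deviations of the real arrays were correlated, so that run is no check of these p-values. A gene of a list was represented by its brightest probe set, and up to 3 called genes per list were named. Intervals are at 95%. Tables, the exact permutation test (scipy 1.17.1) and figures used Python 3.11.15, pandas 2.3.3 and matplotlib 3.10.9. Promoters came from RefSeq. The members, gene lists and alternatives were chosen with earlier results of these data known.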

Additional observations from a re-analysis of the deposited data

How the results depend on the processing

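Of 636 values of member probe sets under alternatives, 601 kept their direction and side of the threshold, 9 lost a call, 7 gained one and 19 turned direction. The 636 include threshold settings and fits that could not change the fold change. All 9 lost calls were those of SDC1 in treated against untreated T84. Of these, 7 came in refits and the others at a threshold of 0.01 and with a 1.5-fold minimum. The turned values belong to probe sets that did not pass in either setting. Between treated and untreated T84, GPC3 turned with median centring (-0.0131), GPC5 with array weights (0.0133) and ribosomal centring (0.0386), SDC3 with ribosomal centring (0.0558) and without the 3 arrays that deviated together (0.00657), an alternative chosen after seeing the data, and SDC4 with renewed quantile normalization (-0.0314 and -0.0614). Between untreated T84 and Caco-2, GPC6 turned with median centring (0.0330), ribosomal centring (0.184) and quantile normalization (0.0208). Leaving out single arrays gave ranges of -0.0507 to 0.0781 for GPC3, -0.0750 to 0.0164 for GPC5, -0.0246 to 0.0173 for SDC3 and -0.00531 to 0.129 for the first SDC4 probe set in the first comparison, and -0.0211 to 0.0185 for GPC6 in the second.

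Same-numbered arrays of different groups had deviations from their group means that correlated from -0.64 to 0.56, above 0.1 in 3 of 9 pairs, so the numbers are not taken as pairing. With the replicate block the count of members lower in treated than in untreated T84 was 0, and no other count of called members changed, with 109 calls over all probe sets in that comparison, 499 for untreated and 534 for treated T84 against Caco-2. That count was 2 with the 6 T84 arrays alone, 0 without moderation, with ribosomal centring, at a threshold of 0.01 and with a 1.5-fold minimum, and 0 to 1 without single arrays. Members whose arrays did not overlap numbered 1 of 10 in that comparison after quantile normalization and 3 to 6 without single arrays. Members higher in treated T84 cells than Caco-2 cells numbered 2 with array weights, 4 with ribosomal centring and 1 to 2 without single arrays. Without shared or cross-hybridising probe sets 3 members were lower in each T84 group than in Caco-2, since 5 member probe sets left the table. Over all probe sets, treated against untreated T84 gave 231 calls with array weights, 79 at 0.01 and 66 with a 1.5-fold minimum, against 128, and 86 to 178 without single arrays. Against Caco-2 a 1.5-fold minimum left 312 calls for untreated and 344 for treated T84. Ribosomal centring gave 983 for treated T84 (760 higher and 223 lower, against 244 and 330) and, for untreated T84, 601 higher and 223 lower, against 245 and 305. In treated against untreated T84 it gave 56 higher and 47 lower, against 55 and 73. Apart from these stated causes, the cause was not tested. Over renewed quantile normalization, single arrays left out and the 3 arrays left out together, GPC4 minus GPC3 differed by 0.0872 to 0.177 between treated and untreated T84, 8.63 to 8.79 between untreated T84 and Caco-2, and 8.75 to 8.92 between treated T84 and Caco-2. A signal below the lower quartile, as for GPC6 and SDC2, limits what could be detected.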

Other observations

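The deposited signals hold exact ties between arrays, to the 6 decimals given. A value shared by at least 2 arrays occurred at 44.4% of the 1259 probe sets, and one shared by at least 4 arrays at 12.5%. Among the 10 member probe sets this was so for 3 and 2. GPC6 had the same signal, 4.27, on treated T84 replicate 2, untreated T84 replicate 2 and Caco-2 replicates 2 and 3. SDC3 had the same signal, 6.71, on treated T84 replicate 2, untreated T84 replicates 1 and 2 and Caco-2 replicate 1. GPC4 had the same signal, 8.48, on untreated T84 replicates 1 and 2. The standard errors of GPC6 and SDC3 were 0.04 and the median over all probe sets was 0.08. Most of these ties lay between groups, and their part in the standard errors was not tested.

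Caco-2 replicate 1 deviated from the mean of the other Caco-2 arrays in opposite directions among the members. GPC5 and SDC2 were lower on it, by 1.27 and 0.43 log2 units in size, and GPC1 and SDC1 were higher, by 0.40 and 0.36. The cause was not tested.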
